A study of Caenorhabditis elegans with 60 samples.

Results

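The genes described here are 105 genes whose mRNA was strongly lower at the L4 stage in both mutant alleles of *csr-1a*, the long isoform of the *Caenorhabditis elegans* Argonaute gene *csr-1*. They were chosen by their mRNA levels. Each had a mean of at least 2 CPM (the count divided by the library sum, times 1e+06) over the 3 wild-type libraries, and a mean of at most 1/3 of that in *csr-1a*(*cmp135*) and also in *csr-1a*(*cmp143*). Of 31106 genes in the files, 11624 had a wild-type mean of 2 CPM or more, and 150 of these met the ratio in both alleles. Genes with sperm, cuticle collagen, molting, histone or linc symbols and genes on the X chromosome were then left out. This took away 18 genes by a cuticle or molting symbol and 32 on X, 5 of which were both, and no gene by the other symbols. Because the mRNA libraries chose the genes, their mRNA values in these strains, with the fold changes and calls fitted to them, are given as a description and support nothing. The small RNA libraries, which the choice did not use, are compared by tests.

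The study asked how the isoforms of CSR-1 differ in the small RNAs they bind and in what they do. The mRNA libraries came from whole L4 animals collected 48 h after hatching at 20 °C, with 3 each of *csr-1a*(*cmp135*) IV (strain USC1065), *csr-1a*(*cmp143*) IV (USC1074) and wild-type N2. Small RNA libraries at the same stage came from immunoprecipitations (IPs) and their inputs in 6 tagged strains. CSR-1A (USC1110) carries *2xHA::csr-1a* as allele *cmp165*. CSR-1A[15xAG] (USC1264) carries *cmp165* with *cmp208*, in which the arginines of the RG motifs of the first exon are replaced by alanine. CSR-1A *alg-3/4* (USC1284) carries the *2xHA* tag as *cmp237* and the mutations *ok1041* of *alg-4* and *tm1155* of *alg-3*. CSR-1B (USC1112) carries a *2xFLAG* tag on the short isoform (*cmp167*) and is mutant for *csr-1a* by *cmp135*, and CSR-1A+B (USC1111) carries the *2xFLAG* tag alone (*cmp166*), which marks both isoforms. WAGO-1 (USC988) carries the tag *GFP::3xFLAG* on *wago-1* (*cmp92*) and, with it, *mut-16::mCherry* (*cmp41*). Untagged wild-type animals gave control IPs with the HA and the FLAG antibody and also total small RNA, and adults of the CSR-1B and CSR-1A+B strains were also taken at 68 h. Every sample was whole worms or their lysate, so fewer cells of a type and less RNA per cell cannot be told apart.

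*C. elegans* larvae shed and rebuild their cuticle at each molt, and the epidermis does so with waves of transcription that rise and fall once per larval stage. The products of these waves include collagens, the zona pellucida (ZP) domain proteins of the cuticlin type, lipocalins, hedgehog-related and patched-related proteins, proteases and their inhibitors, and they form or remodel the apical extracellular matrix. CSR-1 is a germline Argonaute that binds small RNAs antisense to germline mRNAs. CSR-1A is made during spermatogenesis, and the animals without it still make CSR-1B.

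Both alleles remove the start codon of *csr-1a*, and *csr-1a*(*cmp143*) also lacks part of the promoter before it. What the alleles share is the loss of the bases in capitals in the first sequence below. The repair template, in which capitals mark the bases put in their place, and the guide RNA target, with its PAM in capitals, show the edit as *csr-1a*(*cmp135*) has it. The bases before the ATG lie on the promoter side, and how many of them *csr-1a*(*cmp143*) keeps was not determined here. All lie on the plus strand of build WBcel235, the first at chrIV:7957550-7957629 and the guide at chrIV:7957584-7957605.
wild-type: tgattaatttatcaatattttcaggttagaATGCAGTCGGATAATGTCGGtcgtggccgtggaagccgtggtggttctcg
repair template: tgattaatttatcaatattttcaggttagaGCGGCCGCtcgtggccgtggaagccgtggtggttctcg
guide RNA: agtcggataatgtcggtcgTGG
The edit takes out 20 bases, IV 7957580 to 7957599, beginning with the ATG, and puts in 8. Counts on *csr-1* join both isoforms and so do not check the edit directly. They came to 68.0, 53.8 and 61.4 CPM in *csr-1a*(*cmp135*), 45.4, 56.2 and 44.04 in *csr-1a*(*cmp143*), and 141, 131 and 135 in wild-type, so the libraries of each mutant lay below all those of wild-type.

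The mRNA libraries held between 16729691 and 21093818 counts on genes and the small RNA libraries between 570862 and 17342341. None of 46 pairs of replicates had identical values. Lists of marker genes differed between the strains. The vitellogenins *vit-2*, *vit-5* and *vit-6*, yolk proteins of adults, summed to 2862 to 4368 CPM in *csr-1a*(*cmp135*), 1715 to 4810 in *csr-1a*(*cmp143*) and 135 to 220 in wild-type. The 9 oogenic markers summed to 188 to 332 CPM in *csr-1a*(*cmp135*), 75.8 to 254 in *csr-1a*(*cmp143*) and 49.3 to 52.2 in wild-type. The 5 epidermal markers (*elt-3*, *lin-26*, *nhr-23*, *grh-1* and *dpy-7*) summed to 110 to 141 CPM in *csr-1a*(*cmp135*) and 128 to 208 in *csr-1a*(*cmp143*), against 377 to 488 in wild-type. All 5 were called lower in both alleles and all 3 vitellogenins higher in both, and of the 9 oogenic markers 9 were higher in *csr-1a*(*cmp135*) and 6 in *csr-1a*(*cmp143*) (edgeR's quasi-likelihood test, Benjamini-Hochberg adjustment). The 10 spermatogenic markers summed to 294 to 378 CPM in *csr-1a*(*cmp135*), 155 to 289 in *csr-1a*(*cmp143*) and 320 to 334 in wild-type, and the 3 seam cell markers to 2.74 to 3.85, 2.30 to 4.26 and 5.31 to 7.99 CPM in these groups. Of the 10 spermatogenic markers 0 were called in *csr-1a*(*cmp135*) and 2 were lower in *csr-1a*(*cmp143*), and of 2 seam markers tested 1 was lower in each allele. Of the 5 neuronal markers 4 were lower in *csr-1a*(*cmp135*) and 1 in *csr-1a*(*cmp143*), and of the 6 intestinal ones 5 were higher in each allele. Of 4 pharyngeal markers tested 1 was higher in each allele, and no marker of body muscle or of the germline of either kind was called. These differences of stage and tissue markers moved with the mRNA results below, and their part in them was not tested. No list holds any of the 105 genes.

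**Figure D1:**
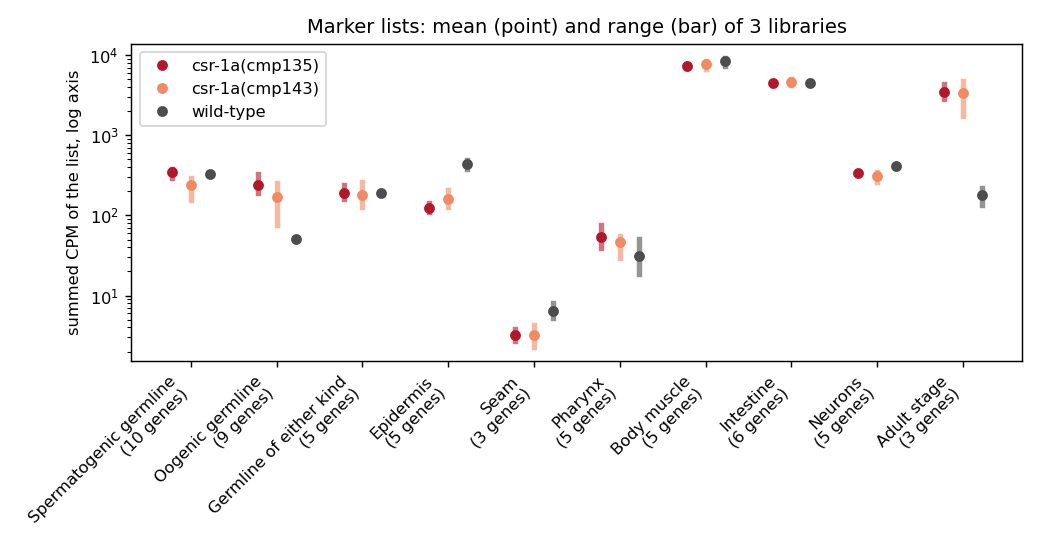
Summed CPM (log axis) of each marker list in *csr-1a*(*cmp135*), *csr-1a*(*cmp143*) and wild-type L4 animals; points are means of 3 libraries and bars their range. The adult list lies above wild-type in both mutants (at least 1715 CPM in every mutant library, at most 220 in wild-type) and the epidermal list below it (at most 208 CPM, against at least 377).

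In sum, the 105 genes gave 1268, 1705 and 1710 CPM in the *csr-1a*(*cmp135*) libraries, 1872, 1883 and 3220 in *csr-1a*(*cmp143*), and 9607, 7426 and 6615 in wild-type. The median ratio to the wild-type mean was 0.185 in *csr-1a*(*cmp135*) and 0.287 in *csr-1a*(*cmp143*), where all 11624 genes had medians of 0.899 and 0.893. In 103 of the 105 every mutant library lay below every wild-type library, the exceptions being *chtb-1* and Y11D7A.3. The ratio that chose the genes favours such a separation. For 99 genes the mean was lower in *csr-1a*(*cmp135*) than in *csr-1a*(*cmp143*), and in 91 the third *csr-1a*(*cmp143*) library was the highest of its group. In wild-type, 82 of the 105 were highest in replicate 1 and 69 lowest in replicate 3. Shares over all genes were not counted for the separation or for these orders of libraries, so neither is shown to be particular to the list. The molt regulator *nhr-23*, an epidermal nuclear hormone receptor that is not among the 105, had 7.21, 5.80 and 6.10 CPM in *csr-1a*(*cmp135*), 7.47, 7.90 and 18.1 in *csr-1a*(*cmp143*), and 38.3, 32.9 and 21.2 in wild-type. It too was highest in the third library of *csr-1a*(*cmp143*) and in replicate 1 of wild-type, but it was highest in replicate 1 of *csr-1a*(*cmp135*), where 69 of the 105 were lowest.

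edgeR's quasi-likelihood test over 14419 genes tested 104 of the 105 (*idpp-1* had too few counts). It called all 104 lower in *csr-1a*(*cmp135*), where 14.8% of all genes tested were called lower, and 102 lower in *csr-1a*(*cmp143*), where 10.8% were. The choice of the genes fixes these counts, and the alleles share the wild-type libraries. *chtb-1* and Y11D7A.3 were not called in *csr-1a*(*cmp143*) (log2 fold changes −1.45 ± 0.71 and −1.44 ± 0.58, SE). Over all genes, 2594 were higher and 2137 lower in *csr-1a*(*cmp135*), and 2239 and 1554 in *csr-1a*(*cmp143*). When libraries were scaled by their size alone, the split became 2019 higher and 3112 lower in *csr-1a*(*cmp135*) and 1710 and 2640 in *csr-1a*(*cmp143*), with the median of all genes at −0.13 and −0.16 on the log2 scale, and the counts of the 105 called stayed at 104 and 102.

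**Figure D2:**
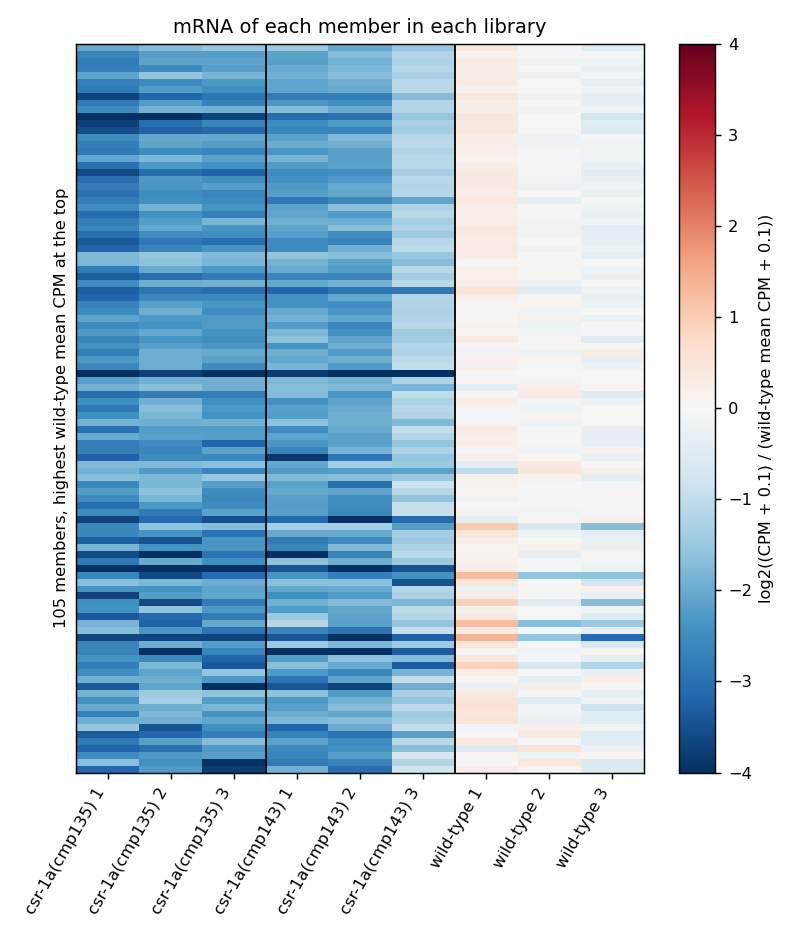
Each of the 105 genes (lines, highest wild-type mean at the top) in each mRNA library (columns); colour gives log2 of CPM over the wild-type mean, with 0.1 CPM added to both and limits at −4 and 4. Blue fills the 6 mutant columns, palest in the third *csr-1a*(*cmp143*) library (3220 summed CPM, against 1872 and 1883 in the others of its group).

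Levels spanned a wide range. The wild-type mean was between 2.09 and 1057 CPM with a median of 18.6, 19 genes were above 100 CPM and 41 below 10. Protein-coding genes made up 102 of the 105 and pseudogenes 3, and 58 had only a sequence name or identifier. By chromosome, 16 lay on I, 31 on II, 18 on III, 18 on IV and 22 on V, where 2001, 1940, 1969, 1986 and 2151 genes had 2 CPM or more. Few were neighbours. Within 20000 bases of each other lay T05C12.4 and *qua-1*, *nspe-7*, Y38E10A.28 and *nhr-235*, and F19H8.2 and *mltn-9* on II, and *oac-40* and *bus-1* on V. Counting is not stated to use strand, but no gene of the 105 shared 25% or more of its exonic bases with another gene.

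Hedgehog-related proteins of nematodes are secreted by epidermal cells, and 2 of the 30 such genes at 2 CPM or more were among the 105. *qua-1*, which is needed for molting, had 116, 156 and 158 CPM in *csr-1a*(*cmp135*), 165, 217 and 320.0 in *csr-1a*(*cmp143*), and 789, 679.8 and 695 in wild-type. *wrt-10*, of the warthog group, had 34.2, 51.1 and 37.1 CPM in *csr-1a*(*cmp135*), 48.9, 44.5 and 107 in *csr-1a*(*cmp143*), and 294, 238 and 194 in wild-type. For both, the highest mutant library was below the lowest wild-type library. The log2 fold changes of *qua-1* were −2.21 ± 0.21 in *csr-1a*(*cmp135*) and −1.49 ± 0.20 in *csr-1a*(*cmp143*) (SE). The family as a whole moved both ways: of 36 hedgehog-related genes tested, 19 were lower and 15 higher in *csr-1a*(*cmp135*), and 15 were lower and 14 higher in *csr-1a*(*cmp143*).

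The patched-related family, membrane proteins with a sterol-sensing domain, gave *ptr-10* and *ptr-15*, 2 of its 24 genes at 2 CPM or more. *ptr-10* had 4.17, 6.33 and 6.27 CPM in *csr-1a*(*cmp135*), 6.99, 8.90 and 16.9 in *csr-1a*(*cmp143*), and 44.4, 39.3 and 30.9 in wild-type. *ptr-15* had 5.15, 6.21 and 6.10 CPM in *csr-1a*(*cmp135*), 6.75, 6.27 and 10.0 in *csr-1a*(*cmp143*), and 25.6, 22.04 and 23.1 in wild-type. The 3 groups of *ptr-10* did not overlap, while the *csr-1a* alleles were closer together for *ptr-15*. Of 25 patched-related genes tested, 9 were lower and 5 higher in *csr-1a*(*cmp135*), and 8 and 6 in *csr-1a*(*cmp143*).

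ZP domain and related matrix proteins were the family with most genes in the list, 7 of 20 at 2 CPM or more, and 2 more on X met the same ratio. *fbn-1*, a fibrillin-like protein of the apical matrix, had 9.67, 12.5 and 17.3 CPM in *csr-1a*(*cmp135*), 25.9, 27.7 and 75.6 in *csr-1a*(*cmp143*), and 305, 224 and 131 in wild-type, or log2 fold changes of −3.94 ± 0.44 and −2.22 ± 0.40 (SE). *let-653*, a matrix protein that lines the lumen of the excretory duct and vulva, had 6.58, 9.35 and 8.44 CPM in *csr-1a*(*cmp135*), 12.1, 10.7 and 31.9 in *csr-1a*(*cmp143*), and 84.9, 68.9 and 53.0 in wild-type. Both were spread over a factor of more than 1.5 within wild-type and more within *csr-1a*(*cmp143*), and their groups still did not overlap. *cutl-28* had 6.67, 7.75 and 6.22 CPM in *csr-1a*(*cmp135*), 9.09, 5.94 and 11.9 in *csr-1a*(*cmp143*), and 35.3, 29.7 and 31.3 in wild-type. The other cuticlin-like genes, *cutl-6*, *cutl-9*, *cutl-10* and *cutl-16*, were scarcer, with at most 5.84 CPM in any wild-type library. Of 30 genes of this kind tested, 13 were lower and 5 higher in each allele.

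The other matrix families gave 1 gene each. *bli-1*, a collagen of the struts of the adult cuticle whose symbol is not among those left out, had 95.2, 151 and 152 CPM in *csr-1a*(*cmp135*), 145, 172 and 281 in *csr-1a*(*cmp143*), and 811, 565 and 594 in wild-type. *lpr-1*, a lipocalin required for an unbroken excretory duct, had 4.51, 7.04 and 4.62 CPM in *csr-1a*(*cmp135*), 7.47, 5.71 and 13.9 in *csr-1a*(*cmp143*), and 31.96, 26.4 and 24.6 in wild-type. Only *bli-1* of 6 genes with a *bli* symbol met the ratio, whereas 5 of 7 lipocalin-related genes did, 4 of them on X. *clec-180*, with a C-type lectin domain, had 39.1, 58.5 and 50.6 CPM in *csr-1a*(*cmp135*), 63.5, 69.2 and 127 in *csr-1a*(*cmp143*), and 308, 270.3 and 253 in wild-type. It was the single gene of 67 C-type lectins at 2 CPM or more, and of 106 lectins tested 11 were lower and 35 higher in *csr-1a*(*cmp135*), and 7 and 34 in *csr-1a*(*cmp143*). No transthyretin-related gene and no gene with an *abu* or *pqn* symbol, of 38 and 32 at 2 CPM or more, was in the list.

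**Figure D3:**
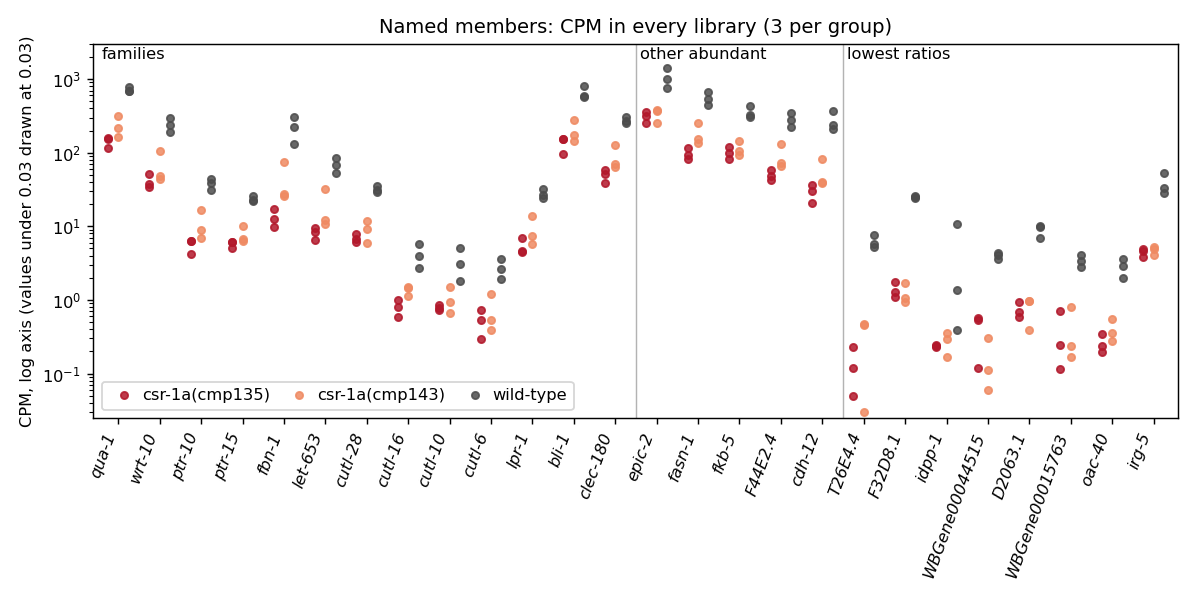
CPM (log axis) in every mRNA library of 26 of the 105 genes, as points for *csr-1a*(*cmp135*), *csr-1a*(*cmp143*) and wild-type, in 3 blocks: matrix families, other abundant genes and lowest ratios. Mutant and wild-type points are apart for each gene, and *idpp-1* reaches 10.7 CPM in 1 wild-type library and 0.390 in another.

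The cuticle collagens and molting genes left out by symbol went mostly the other way. Of 153 at 2 CPM or more, 18 met the ratio, yet the family's median ratios were 1.44 and 1.32. Of 183 tested, 52 were lower and 106 higher in *csr-1a*(*cmp135*), and 45 and 94 in *csr-1a*(*cmp143*). Of 7 molt regulators listed (*nhr-23*, *nhr-25*, *lin-42*, *myrf-1*, *myrf-2*, *blmp-1* and *grh-1*), 6 were lower in *csr-1a*(*cmp135*) and 5 in *csr-1a*(*cmp143*), and none was higher. The largest change was that of *nhr-23*, at −2.14 ± 0.31 and −1.32 ± 0.30 (log2, SE; adjusted p = 0.00044 and 0.0081, edgeR).

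Among the genes outside these families, *epic-2* was the most abundant, with 257, 316 and 362 CPM in *csr-1a*(*cmp135*), 376, 255 and 368 in *csr-1a*(*cmp143*), and 1412, 1000 and 758 in wild-type. *fasn-1*, the fatty acid synthase, had 82.5, 93.2 and 118 CPM in *csr-1a*(*cmp135*), 137, 155 and 249.9 in *csr-1a*(*cmp143*), and 658, 544 and 441 in wild-type. *fkb-5*, a peptidyl-prolyl isomerase of the FK506-binding kind, had 82.5, 121 and 97.8 CPM in *csr-1a*(*cmp135*), 92.9, 106 and 142 in *csr-1a*(*cmp143*), and 427, 302 and 329 in wild-type. In these 3 genes no mutant library came within 100 CPM of the lowest wild-type library. F44E2.4 had 42.3, 48.2 and 57.9 CPM in *csr-1a*(*cmp135*), 65.5, 71.6 and 131 in *csr-1a*(*cmp143*), and 347, 279 and 221 in wild-type. 3 cadherins, cell adhesion proteins, were in the list, of which *cdh-12* had 20.7, 30.1 and 36.8 CPM in *csr-1a*(*cmp135*), 38.9, 40.04 and 82.1 in *csr-1a*(*cmp143*), and 369.9, 238 and 209.7 in wild-type. The others, *cdh-10* and *cdh-7*, had ratios of 0.101 and 0.102 in *csr-1a*(*cmp135*) and 0.233 and 0.251 in *csr-1a*(*cmp143*).

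Other named genes of the list were the matrix metalloprotease *zmp-2*, the laminin subunit *lam-3*, the sterol methyltransferase *strm-1*, the P-glycoprotein *pgp-11*, the infection response genes *irg-4* and *irg-5*, the acyltransferases *oac-29* and *oac-40*, the zinc finger genes *ztf-2* and *ztf-30*, the T-box gene *tbx-7*, the homeobox gene *hmbx-1* and the nuclear hormone receptor *nhr-235*. Ratios in *csr-1a*(*cmp135*) were between 0.0213 (T26E4.4) and 0.308 (*hmbx-1*), and in *csr-1a*(*cmp143*) between 0.0397 (WBGene00044515, a pseudogene) and 0.332 (Y65B4BL.1).

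The genes with the lowest ratios were mostly scarce. T26E4.4 had 0.0491, 0.118 and 0.228 CPM in *csr-1a*(*cmp135*), 0.478, 0 and 0.457 in *csr-1a*(*cmp143*), and 7.52, 5.83 and 5.22 in wild-type. F32D8.1 had 1.28, 1.78 and 1.08 CPM in *csr-1a*(*cmp135*), 1.67, 0.952 and 1.07 in *csr-1a*(*cmp143*), and 24.4, 25.5 and 25.1 in wild-type. F32D8.1 differed from most of the list in being even across the wild-type libraries and as low in *csr-1a*(*cmp143*) as in *csr-1a*(*cmp135*) (ratios 0.0492 and 0.0551). *irg-5* was also about equally low in both alleles but uneven in wild-type, with 3.83, 4.91 and 4.56 CPM in *csr-1a*(*cmp135*), 4.12, 4.93 and 5.18 in *csr-1a*(*cmp143*), and 53.6, 28.1 and 33.1 in wild-type. D2063.1 had ratios of 0.0835 and 0.0869, *oac-40* of 0.0908 and 0.140, and the pseudogenes WBGene00044515 and WBGene00015763 of 0.102 and 0.0397, and 0.104 and 0.119. Both alleles were at or under 1/4 of wild-type in 25 genes, and at or under 1/10 in 4 (T26E4.4, F32D8.1, *idpp-1* and D2063.1).

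In 3 genes the wild-type mean rested on replicate 1. *idpp-1* had 0.245, 0.237 and 0.228 CPM in *csr-1a*(*cmp135*), 0.299, 0.168 and 0.355 in *csr-1a*(*cmp143*), and 10.7, 1.37 and 0.390 in wild-type. F30H5.3 and *chtb-1* likewise had 14.6 and 11.1 CPM in that library and at most 1.99 and 1.66 in the other wild-type libraries. Just inside the limit, Y65B4BL.1, *ztf-30* and Y11D7A.3 had *csr-1a*(*cmp143*) ratios of 0.332, 0.331 and 0.330. Just outside, *nhr-234*, *acp-6* and *osr-1* had 0.333, 0.334 and 0.335 in that allele and 0.168, 0.213 and 0.244 in *csr-1a*(*cmp135*). The limit falls inside a continuous range of ratios, since 385 genes met a ratio of 1/2 under the same exclusions.

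The promoters were compared by short motifs, since the genes moved together. AGGTCA is a hexamer bound by nuclear hormone receptors, among them those of the ROR type, to which NHR-23 belongs. Promoters were taken as the 250 bases before to 50 after each protein-coding gene's start in the files' annotation (sequence from RefSeq, WBcel235), which gave 102 promoters, the 3 pseudogenes having none. AGGTCA was found on either strand in 38 of these 102 (37.3%), against 942 of 11411 promoters of genes at 2 CPM or more (8.26%) and 8.48% of all 19710. The genes left out by symbol or on X had it in 21 of 45 (46.7%). With 500 bases before the start, 48 of 102 (47.1%) had it, against 13.9% of the genes at 2 CPM or more. The same letters reversed without complement, ACTGGA, were in 14.7% and 10.2%, the GATA motif AGATAA in 25.5% and 22.4%, TGATAA in 26.5% and 31.4%, and TATAAA in 35.3% and 35.8%. The GATA motifs were searched on both strands as well, and the median GC content was 36.7% in the 102 promoters and 34% in the 11411.

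**Figure D4:**
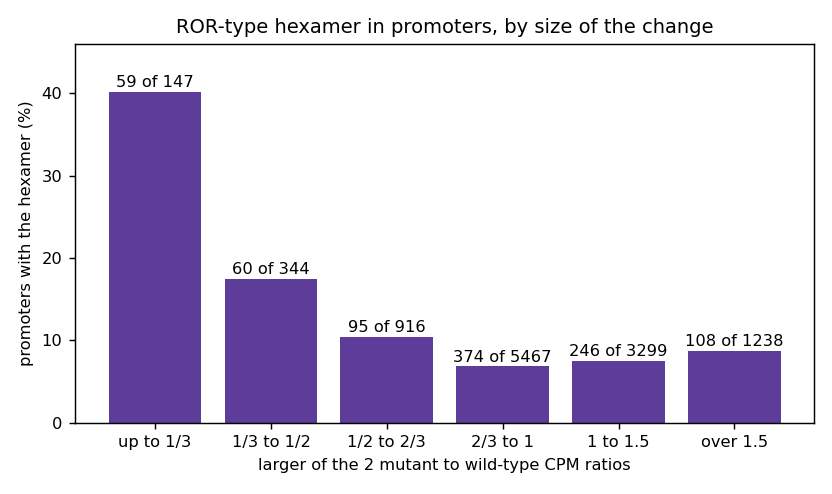
Share of promoters that hold AGGTCA on either strand, for all genes at 2 CPM or more in wild-type, by the larger of their mutant to wild-type ratios in the alleles. The share is 40.1% (59 of 147) at ratios up to 1/3, 17.4% between 1/3 and 1/2, 10.4% between 1/2 and 2/3, and 6.84% to 8.72% above that.

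The 39 matches in these 38 promoters lay at a median of 85 bases before the start (−85). Of the 39, 37 began before the gene start and 25 of those within 150 bases of it, and 21 had the orientation of their gene. The windows below show the match in capitals with the bases around it, read on the strand that holds it, for genes described in the text and for F59B10.5, which had a pair of matches.
*epic-2*, chrIV:1720730-1720755: tgagacacaaAGGTCActctcgacac
*bli-1*, chrII:10708524-10708549: ggtaagatgcAGGTCAagaaaaccgc
*cdh-10*, chrIV:2463501-2463526: taagaaaatcAGGTCAgatttcgttt
*cdh-7*, chrII:14843133-14843158: catttgaaatAGGTCAtctagtgaag
*ptr-15*, chrV:6970178-6970203: gctagaaacaAGGTCAgcacctcttc
*cutl-16*, chrII:6441290-6441315: gctcccgacaAGGTCAgaacccccta
F44E2.4, chrIII:8838649-8838674: tgactagtggAGGTCAaaataaaaga
F19H8.2, chrII:14605727-14605752: tagaaaaagtAGGTCAcccttctcat
C09F9.2, chrII:14705412-14705437: ttggagcagaAGGTCAaaggttggac
*strm-1*, chrIII:2401824-2401849: agcgtcaaaaAGGTCAaaaaggtgcg
*irg-5*, chrV:13738461-13738486: attttctttcAGGTCAtgttatcccg
*cdr-7*, chrV:12412155-12412180: agagatcaagAGGTCAaaataaccga
F59B10.5, chrII:10523261-10523286: gagaagaagcAGGTCAaacttgttct
F59B10.5, chrII:10523220-10523245: agtgaaatcgAGGTCAgtgaaaacac
The match lies on the plus strand for *epic-2*, *bli-1*, F44E2.4, C09F9.2, *cdr-7* and F59B10.5, and on the minus strand for the others. The promoters of *lpr-1*, *fkb-5*, *ptr-10*, *fasn-1*, *lam-3* and *cutl-10* also held it, while those of *qua-1*, *wrt-10*, *fbn-1* and *let-653* did not within this window. A match is a description of the sequence and not a site of binding, and binding by NHR-23 or another receptor was not tested.

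Few small RNAs mapped to these genes. In total small RNA of wild-type L4 animals the median of the 105 genes was 0.476 RPM (the reads of a gene divided by all counts on genes, times 1e+06), against 11.2 RPM for genes at 2 CPM or more, and 30 genes had 0 in both libraries. Of the 105, 12 reached 10 RPM (11.4%), against 51.8% of genes at 2 CPM or more. The most covered were Y105E8A.13 (859.5 and 860.4 RPM), *cdh-12* (739 and 745), *strm-1* (273 and 262) and Y43F4A.1 (261 and 236), and *cutl-10*, *epic-2*, *lam-3* and Y73E7A.8 had between 51.1 and 109 RPM. These 8 genes carried most of the summed 2534 and 2560 RPM of the list. In the CSR-1A IP the median of the 105 was 0.763 RPM, against 15.1 RPM, and 14 reached 10 RPM, against 56.3% of genes at 2 CPM or more. Across the 105 genes, wild-type mRNA and total small RNA had a Spearman rho of 0.27, close to the 0.24 across all 11624 (points share libraries, and genes are not independent).

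None of the 105 was a small RNA target of CSR-1A at L4. A target had a log2 enrichment in the IP over its input of at least 1, an adjusted p of at most 0.05 (edgeR) and a mean of 10 RPM in the IP, and was not called in the control IP of the same antibody. In the CSR-1A IP 47 of the genes had counts enough to be tested and 0 were targets, where 14.1% of 13688 genes were. The minimum of 10 RPM was reached by 14 of the 105 in this IP and by 18 in the CSR-1A *alg-3/4* IP. Most of the genes tested could thus not be called whatever their enrichment, and the shares of all genes are not like for like. Before adjustment and the RPM minimum 3 had p of at most 0.05 with higher small RNAs in the IP, and DESeq2 also called 0 targets. Those 3 were *ztf-2* (log2 enrichment 1.12 ± 0.30, SE), *pgp-11* (1.39 ± 0.48) and *arrd-13* (1.03 ± 0.38). The median log2 enrichment of the 47 was −0.74, against 0.25 over all genes tested, and 5 of the 47 were above 0, against 58.1%. The median rested partly on IP replicate 2, without which it was −1.70, against −0.0056 over all genes, with 42 of the list tested and 0 targets. In the CSR-1A *alg-3/4* IP, 46 genes were tested and 0 were targets, where 14% of all were, with 0 at an unadjusted p of at most 0.05 in that direction and 0 by DESeq2. Their median was −1.86, against −0.09.

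The other CSR-1 IPs gave few targets, and the same RPM minimum limited which genes of the list could be called. In the CSR-1A[15xAG] IP 2 of 54 genes tested were targets, where 20.6% of all genes were. *ztf-2* had 17.4, 17.6 and 26.5 RPM in the IP and 2.00, 2.15 and 1.04 in the input (log2 enrichment 2.46 ± 0.26, adjusted p = 3.1e-06, edgeR). *pgp-11* had 10.3, 12.2 and 11.2 RPM in the IP and 0.856, 1.61 and 1.56 in the input (1.92 ± 0.31). At L4, 1 of 47 genes was a CSR-1B target (all genes 27.6%) and 0 of 48 were CSR-1A+B targets (31.7%; 2 at an unadjusted p of at most 0.05, 0 by DESeq2). In adults, 1 of 39 was a CSR-1B target (29.7%) and 1 of 36 a CSR-1A+B target (25.3%). Median log2 enrichments of the genes tested were −3.12 with CSR-1A[15xAG], −3.15 with CSR-1B and −1.60 with CSR-1A+B at L4, and −1.37 with CSR-1B and −0.9997 with CSR-1A+B in adults. All genes tested had medians of 0.03, −1.25, −0.07, −0.38 and −0.15 in these IPs, so the genes of the list lay lower in each.

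The CSR-1B and adult targets were a single gene, *arrd-13*, which encodes an arrestin domain protein. It had 24.9 and 24.04 RPM in the adult CSR-1B IP and 7.49 and 7.87 in its input (log2 enrichment 2.00 ± 0.17, SE; adjusted p = 2.4e-07, edgeR). In the adult CSR-1A+B IP it had 19.6 and 22.1 RPM, and 5.96 and 10.1 in the input (1.53 ± 0.25, adjusted p = 0.00067, edgeR). IP and input did not overlap in either. At L4 it had 7.01 and 13.96 RPM in the CSR-1B IP and 1.82 and 2.83 in the input (1.42 ± 0.39), and there the call was lost with DESeq2, with the replicate number as a block (0 targets) and in 3 of the 4 fits without a single library, namely either input or IP replicate 2. At L4 it was enriched by 2.45 ± 0.41 in the IP of CSR-1A+B, with a mean of 8.56 RPM, under the minimum. Its mRNA was 16.2, 17.9 and 15.9 CPM in *csr-1a*(*cmp135*), 15.1, 12.7 and 16.7 in *csr-1a*(*cmp143*), and 53.7, 59.3 and 56.1 in wild-type, and it was among the 6 genes that were lower in *csr-1a*(*cmp143*) than in *csr-1a*(*cmp135*).

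WAGO-1, an Argonaute of the silencing small RNA pathways, had more targets in the list. In its IP 10 of 43 genes tested were targets, near the 20.3% of all genes. The median log2 enrichment of the 43 was 1.32, against −0.11 over all genes. Of the 43, 27 were above 0, against 48.6% of all genes tested. The median depended on the libraries and the filter, being 0.66 without input replicate 1, 0.80 without IP replicate 2, 0.76 with library size alone (all genes −0.68) and, with no filter on low counts, 0.27 over 100 genes of the list, near the 0.22 over all genes. *epic-2* had 284 and 300.1 RPM in the IP and 80.3 and 79.8 in the input (log2 enrichment 2.43 ± 0.10, SE). *cdh-12* had 599 and 600.4 RPM in the IP and 182 and 199.9 in the input (2.21 ± 0.09). C09F9.2 had 66.0 and 61.3 RPM in the IP and 16.1 and 20.4 in the input (2.36 ± 0.13). In all 3 genes both IP libraries were far above both inputs. The pseudogene WBGene00023395 had the largest enrichment of the 10 (2.46 ± 0.16), with 30.8 and 29.4 RPM in the IP and 9.08 and 7.05 in the input. The other targets were *strm-1*, Y43F4A.1, Y73E7A.8, *cutl-10*, Y105E8A.13 and *lam-3*, with enrichments between 1.4999 and 2.13. The 8 genes most covered in total small RNA were thus all among the 10, an overlap that the RPM minimum favours.

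Control IPs from untagged animals also pulled down small RNAs of some of the genes. With the HA antibody 1 of 55 genes tested was called (*cutl-10*; all genes 1.44%). With the FLAG antibody 5 of 42 were called (Y65B4BL.1, *chtb-1*, *fkb-5*, *bli-1* and F30H5.3, with log2 enrichments between 1.11 and 2.17), where 4.57% of all genes were, and the median of the 42 was 0.59, against −0.00031 over all genes. With the replicate number as a block, since same-numbered IPs and inputs of these controls correlated, 3 genes were called with HA and 7 with FLAG, and DESeq2 called 3 and 6. The FLAG antibody was used for the IPs of CSR-1B, CSR-1A+B and WAGO-1.

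**Figure D5:**
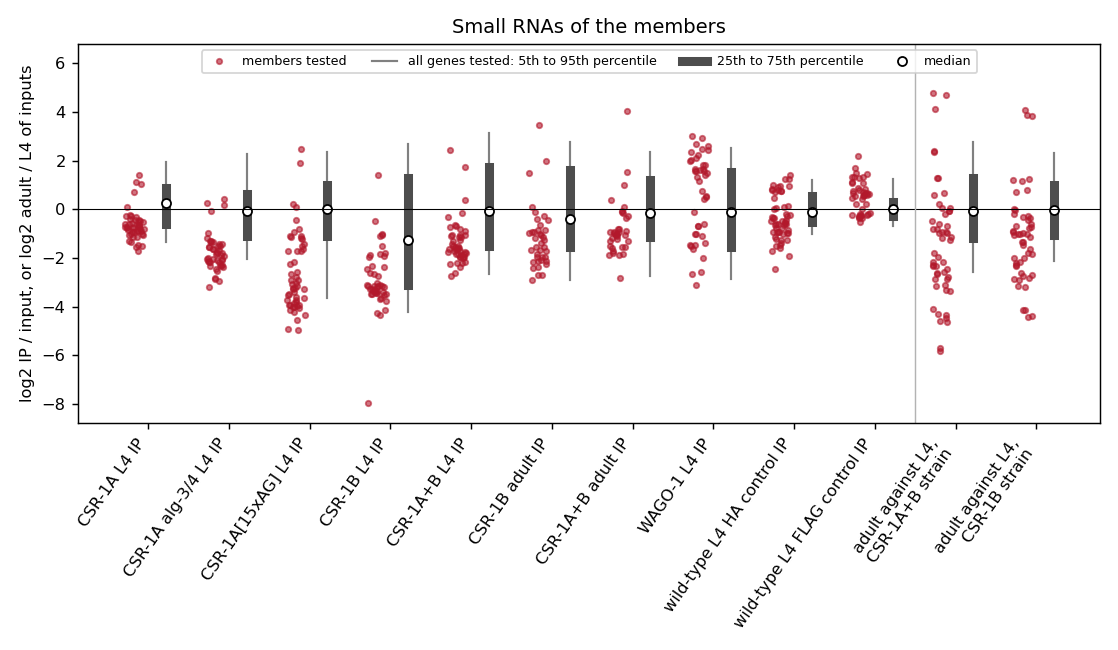
log2 fold change of small RNAs of each gene of the list tested (points), beside all genes tested (thin line 5th to 95th percentile, thick line 25th to 75th, circle median), for IP against input and, right of the vertical line, for adult against L4 inputs. Most points lie under the median of all genes in the CSR-1 IPs (medians −3.15 to −0.74) and above it in the WAGO-1 IP (median 1.32).

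Without CSR-1A few of these genes were called different in small RNAs, though most of those tested lay slightly lower. In inputs at L4, the CSR-1B strain, which carries *csr-1a*(*cmp135*), was compared with the CSR-1A+B strain, and 3 of 49 genes tested were lower and 0 higher, where 4.27% and 2.18% of all genes were (edgeR). Of the 49, 1 in the higher direction and 13 in the lower had an unadjusted p of at most 0.05 (edgeR), and DESeq2 called 0 higher and 1 lower. The median log2 fold change of the 49 was −0.23, against −0.0069 over all genes, and 11 were above 0, against 49.2%. *qua-1* had 7.30 and 3.66 RPM in the CSR-1B strain and 14.5 and 12.5 in the CSR-1A+B strain (log2 fold change −1.23 ± 0.27, adjusted p = 0.029, edgeR). F23H12.5 had 1.82 and 1.33 RPM, against 4.03 and 4.68 (−1.41 ± 0.32), and *idpp-1* 2.88 and 1.83, against 5.56 and 5.43 (−1.17 ± 0.30). The groups did not overlap in these 3 genes. The count is not stable, since leaving out CSR-1A+B input replicate 1 gave 0 and leaving out CSR-1B input replicate 1 gave 14.

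Without ALG-3 and ALG-4, Argonautes of spermatogenesis, 20 of 55 genes tested had higher small RNAs in the input and 5 lower, where 11.5% and 18.2% of all genes were called. *let-653* had 3.37, 13.4 and 11.9 RPM in CSR-1A *alg-3/4* and 1.51 and 0.592 in CSR-1A (log2 fold change 3.57 ± 0.74, SE; adjusted p = 0.0097, edgeR). *fbn-1* had 26.5, 55.8 and 59.1 RPM in CSR-1A *alg-3/4*, against 10.0 and 10.3 (2.62 ± 0.40), and F19H8.2 had 1.35, 2.85 and 2.97, against 0.566 and 0.197 (2.97 ± 0.66). Others that rose were *cdh-10*, *wrt-10*, *cdh-7*, F44E2.4, *mltn-9*, *fasn-1*, *fkb-5*, *ptr-15* and *clec-180*. In *let-653*, *fbn-1* and F19H8.2 the first CSR-1A *alg-3/4* library was the nearest to CSR-1A. The 5 that fell were *cutl-10* (35.9, 18.8 and 19.6 RPM in CSR-1A *alg-3/4*, against 176 and 145; −2.34 ± 0.24), *epic-2* (24.7, 35.8 and 35.2, against 137 and 103; −1.504 ± 0.23), Y105E8A.13 (−1.20 ± 0.26), Y43F4A.1 and Y73E7A.8. All 5 were also WAGO-1 targets. They were among the genes most covered in total small RNA, which the RPM minimum of a target favours. The share of such an overlap over all genes was not counted, so it is not shown to be particular to the list. The counts depended on single libraries: 41 were called without CSR-1A *alg-3/4* replicate 1, 15 without its replicate 2, 10 without its replicate 3, 11 without CSR-1A input replicate 2 and 3 without CSR-1A input replicate 3. Scaling by library size alone gave 10 higher and 8 lower.

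Small RNAs of these genes differed with stage. In inputs of the CSR-1A+B strain, 7 of 53 genes tested were higher and 36 lower in adults than at L4, where 41.8% and 41.4% of all genes were. In the CSR-1B strain 6 of 51 were higher and 34 lower, where 38.2% and 39.2% were (10 higher and 28 lower when scaled by library size alone). The medians were −1.27 and −1.07 on the log2 scale, against −0.06 and −0.05 over all genes. *bli-1* had 0.486 and 0.389 RPM in adults and 21.4 and 19.7 at L4 in the CSR-1A+B strain (−5.84 ± 0.28, adjusted p = 6.0e-10, edgeR), and 0.873 and 1.29 in adults and 14.9 and 10.1 at L4 in the CSR-1B strain. *qua-1* had 0.365 and 0.259 RPM in adults and 14.5 and 12.5 at L4 in the CSR-1A+B strain (−5.70 ± 0.35). F57H12.6 and, in the CSR-1B strain, T26C5.2 and *cdh-10* fell by 4.62, 4.41 and 4.38 on the log2 scale.

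The genes that rose with stage were different ones. Y58A7A.2 had 117 and 135 RPM in adults and 5.84 and 5.43 at L4 in the CSR-1A+B strain (log2 fold change 4.12 ± 0.13, adjusted p = 1.5e-11, edgeR), and 123 and 102 in adults and 5.47 and 4.66 at L4 in the CSR-1B strain. Y38E10A.28 had 45.8 and 56.1 RPM in adults and 1.53 and 1.497 at L4 in the CSR-1A+B strain (4.71 ± 0.20). *cdr-7* had 18.6 and 16.5 RPM in adults and 0.556 and 0.374 at L4 in the CSR-1A+B strain (4.80 ± 0.33). Each was also higher in adults of the CSR-1B strain (3.88, 3.83 and 4.07 for Y58A7A.2, Y38E10A.28 and *cdr-7*), and *fkb-5* and *arrd-13* were called higher in both strains too.

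Enrichment in the IP differed between CSR-1A[15xAG] and CSR-1A for part of the list. Of 59 genes tested, 1 had higher and 23 lower enrichment with CSR-1A[15xAG], where 7.48% and 11.6% of all genes did (interaction term, edgeR). *ztf-2* was the higher one (log2 difference 1.53 ± 0.44, adjusted p = 0.023), with 6.81, 8.97 and 10.0 RPM in the CSR-1A IP and 3.78 and 3.75 in its input beside the CSR-1A[15xAG] values above. C01F1.5 had 0.128, 0.156 and 0.603 RPM in the CSR-1A[15xAG] IP and 5.56, 4.97 and 3.11 in its input, and 0.498, 2.52 and 1.11 in the CSR-1A IP and 2.45 and 3.95 in its input (−3.54 ± 0.89). Most of the 23 were under 10 RPM, and they included *qua-1*, *bli-1*, *fbn-1*, *let-653*, *fasn-1* and *clec-180*. The call of *ztf-2* was lost whichever replicate was left out, with 0 genes higher each time, and the lower ones numbered 25, 19 and 1 without replicates 1, 2 and 3. Scaling by library size alone gave 3 higher and 19 lower, with the median of all genes at 0.82 on the log2 scale. Between CSR-1A *alg-3/4* and CSR-1A 0 of 57 genes differed in enrichment (2.04% and 0.049% of all genes were higher and lower), 0 and 3 had an unadjusted p of at most 0.05 in these directions, and DESeq2 called 0.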

How the data were processed

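The genes and the family and marker lists were chosen with earlier results of these data known. The authors cleaned mRNA reads by Trimmomatic 0.36 and mapped them by HISAT2 2.1.0, and the deposited values are counts per gene. For small RNA they mapped with Bowtie2 2.2.2, and the deposited values are expected counts, since featureCounts (Subread 1.5.1 in the submitters' notes, and 1.5.1, 1.6.5 or 2.0.0 in the file headers) shared a read among genes as fractions. Neither is normalized, and no strand option is given. Expected counts were rounded. Annotation is that of WBcel235, and 105 of 105 genes had both ends within 2000 bases of their place in the reference annotation.

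Genes were tested with edgeR 4.0.16 in R 4.3.3 (quasi-likelihood test after TMM scaling and filterByExpr, with Benjamini-Hochberg adjustment over all genes and a limit of 0.05), with DESeq2 1.42.0 as an alternative. Tables and figures used Python 3.11.15, pandas 2.3.3, numpy 2.4.6 and matplotlib 3.10.9. Other alternatives were library size alone, no filter, other RPM minimums and ratio limits, the replicate block, and replicates or single libraries left out. Each test used its groups only, except the mRNA fit, which held all 9 libraries. RPM and CPM have counts on genes as their denominator.

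Genes named are up to 6 per family, the 8 lowest ratios, the 8 highest wild-type means, up to 3 per small RNA comparison and direction, and 3 on each side of the limit. Other names were added after their values were seen. Replicates are separate samples by the labels. IP and input come from a common lysate by the methods. Deviations of same-numbered pairs correlated between 0.14 and 0.34 in CSR-1A *alg-3/4*, between 0.14 and 0.47 in the control IPs and between −0.09 and 0.09 in the other tagged IPs, and the column headers of the CSR-1A inputs number them differently from the labels, so their pairing is uncertain. In data simulated at these depths (dispersion 0.1), edgeR recovered 93% of log2 changes of 2 and 9% of changes of 1 for *csr-1a*(*cmp135*), 76% and 7% for the CSR-1A IP, 52% and 0% for the CSR-1B IP at L4, 43% and 6% for adult against L4 inputs of CSR-1A+B, and 25% and 2% for the CSR-1A[15xAG] interaction. That dispersion was set and not taken from these libraries, so the rates need not be those of the tests here. Changes smaller than 1 were called in these data, as for *lin-42* in *csr-1a*(*cmp135*) (−0.83 ± 0.15, log2, SE). HA control input replicate 2, whose file is incomplete, was left out.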

Additional observations from a re-analysis of the deposited data

Results flagged for a closer look

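A test of the difference between IP enrichments picked out CSR-1A[15xAG] against CSR-1A, with 23 genes of the list lower and 1 higher. The gene that was higher is *ztf-2*, by 1.53 on the log2 scale, and it was no longer called in any of the 3 fits that left out a replicate. The largest differences in the other direction were those of H41C03.1 (−3.998), C01F1.5 (−3.54) and *chtb-1* (−3.50). H41C03.1 had 0.128, 0.312 and 0.151 RPM in the CSR-1A[15xAG] IP and 3.00, 2.28 and 3.63 in its input, and 0.166, 1.42 and 0.139 in the CSR-1A IP and 0.944 and 0.987 in its input. *chtb-1* had 2.30, 7.80 and 2.26 RPM in the CSR-1A[15xAG] IP and 32.7, 36.8 and 22.7 in its input, and 2.99, 20.8 and 5.29 in the CSR-1A IP and 10.8 and 13.03 in its input. In each of these genes the second CSR-1A IP library was the highest of its group. Without replicate 3 only 1 gene of the list was called, and it was lower. The libraries of the strains lie in differently dated folders by their file headers, so strain and folder cannot be told apart.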

How the results depend on the processing

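The list held 385 genes at a ratio of 1/2 and 25 at 1/4, 70 with TMM scaling (all shared) and 82 at a minimum of 5 CPM. With replicates left out it held between 65 and 183: 65 without *csr-1a*(*cmp143*) replicate 1 (63 shared), 69 without its replicate 2 (68 shared), 183 without its replicate 3 (104 shared) and 71 without wild-type replicate 1 (67 shared). The counts called in mRNA were then between 94 and 105 for *csr-1a*(*cmp135*) and between 74 and 104 for *csr-1a*(*cmp143*).

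CSR-1A targets numbered 1 with a minimum of 5 RPM, with library size alone and without a filter, and 0 with any single IP library left out. Fits that left a single CSR-1A input library are not counted here, since not all of them could call a target among all genes. Library size alone gave 1 target for CSR-1A *alg-3/4* and 4 for CSR-1A[15xAG], with the median of all genes at 0.81 and 1.13 on the log2 scale. A minimum of 5 RPM gave 1 for CSR-1A+B at L4 and 16 for WAGO-1. CSR-1B at L4 had 0 with DESeq2 and between 0 and 1 with libraries left out. Left-out libraries gave between 10 and 11 WAGO-1 targets, between 1 and 25 differences for CSR-1A[15xAG] against CSR-1A, and between 42 and 46 and 40 and 45 changes of stage in CSR-1A+B and CSR-1B. Without CSR-1A, 1 gene changed with DESeq2, 9 with library size alone, 11 without a filter and between 0 and 14 with libraries left out. Without ALG-3/4, 39 changed without a filter and between 3 and 41 with libraries left out.

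The replicate block gave 0 CSR-1B targets at L4, 103 and 99 genes called in mRNA, 8 changes without CSR-1A and 42 without ALG-3/4, where the strains share only a number (mRNA correlations between −0.23 and 0.20). In the control IPs it gave 3 genes with HA and 7 with FLAG. It moved no other of these counts by over 1.5 times. Leaving a replicate number out of groups of 2 leaves no residual degrees of freedom and was not run. Single libraries were left out instead, a choice made after seeing the data, with the lone library assumed to vary like the other group. Of the values of named genes under the alternatives, 948 kept their call, 55 lost it, 3 gained it and 0 changed sign. These values include the mRNA contrasts of the named genes, whose calls and signs the choice of the genes largely fixed. The tally is therefore a description and no measure of stability. The lowest library, CSR-1B IP replicate 1 at L4, held 570862 counts, and without it CSR-1B also had 1 target. In all comparisons depth limits which genes of the list could be tested.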
